A study of Homo sapiens with 4 samples.

Results

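The nuclear-coded subunits of the respiratory chain and of ATP synthase were examined as a set of genes chosen by symbol: the NDUFA, NDUFB, NDUFC, NDUFS and NDUFV genes of complex I, SDHA to SDHD of complex II, the UQCR genes of complex III, the COX4 to COX8 genes with a letter suffix of complex IV, and the ATP5 genes of complex V. In all, 86 gene symbols of the 25268 in the series matched, and 78 of them had a mean of at least 1 FPKM (fragments normalised to transcript length and to the mapped fragments of the library) over the 4 libraries. These 78 members comprised 37 genes of complex I, 4 of complex II, 9 of complex III, 10 of complex IV and 18 of complex V, among 11147 genes of the series above the same level. The symbols are older ones for complex V, so that ATP5D is the gene now named ATP5F1D and ATP5G1 the gene now named ATP5MC1. By their known roles, 73 members code for a subunit of a mature complex. The other 5 were UQCRBP1 (a processed pseudogene), COX7A2L (a factor that joins complexes into supercomplexes), ATP5S (coupling factor B), ATP5SL (now counted among complex I assembly factors) and ATP5J2-PTCD1 (a readthrough locus). NDUFA4 was kept with complex I by its symbol, although its product is now placed in complex IV.

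The respiratory chain lies in the inner membrane of the mitochondrion. Complexes I and II pass electrons from NADH and succinate to ubiquinone, complex III passes them on to cytochrome c and complex IV to oxygen, and complexes I, III and IV pump protons as they do so. Complex V, the ATP synthase, lets protons back through a ring of c subunits, and the turning of that ring drives ATP synthesis in the F1 head. A few subunits of complexes I, III, IV and V are coded by mitochondrial DNA, and these mtDNA-coded genes were not analysed here. MYC is a transcription factor that binds, with MAX, to the E-box CACGTG and that is known to act on many genes of growth and mitochondrial metabolism.

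The cells were SK-MEL-28, an established line of human melanoma, which had been transduced with lentivirus and selected with geneticin (G418) to carry either the empty pTRIPZ vector (vector line) or a MYC gene behind a Tet-inducible promoter (MYC-inducible line, called the MYC line here), and no single-cell cloning was stated. Each line was sequenced without doxycycline (Dox) and after 54 h with Dox, which made 4 libraries, 1 per condition. With 1 library per condition no difference has a replicate check, no test of the conditions is possible and no p-value is given. By the labels, all 4 libraries come from cells cultured with G418. Values below are given in the order vector line without Dox, vector line with Dox, MYC line without Dox, MYC line with Dox, wherever 4 values stand together.

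MYC itself had 58.3, 54.8, 76.5 and 87.1 FPKM in the 4 libraries. Dox moved it by 0.19 on the log2 scale in the MYC line and by -0.09 in the vector line. Both shifts were smaller than 25%. Between the lines MYC differed by at least 25%, with and without Dox. Its level was higher in the MYC line than in the vector line by 0.39 (log2) without Dox and by 0.67 with Dox. It is not stated whether reads of the introduced MYC gene are counted in these FPKM values. They therefore do not measure the induction of that gene. The 7 melanocyte markers examined were present in the 4 libraries, with PMEL, a protein of pigment granules, at 6176, 6227, 6178 and 3394 FPKM. With Dox in the MYC line 6 of the 7 fell by at least 20%, beside 21.4% of all tested genes. In the vector line 1 fell as far, TYRP1, with a log2 change of -0.35, and DCT had -0.29. Against the Dox-treated vector line 4 of the 7 were lower by at least 20%, beside 20.3% of all tested genes. There TYRP1 had a log2 difference of -0.15 and DCT of 0.07. Of the 7 markers of keratinocytes, leukocytes, epithelium and endothelium, 6 had a mean below 1 FPKM, and the epithelial marker EPCAM had 0.658, 0.769, 0.726 and 2.71 FPKM. The part of these shifts in the results on the respiratory chain was not tested. The low values of the table gave approximate depths of 39100000, 35100000, 42100000 and 39300000 fragments. At this depth the approximate counting error of the log2 change in the MYC line had a median of 0.0236 over the members, and it was at most 0.05 for 71 of the 78. It covers sampling alone and leaves out any difference between cultures: 25 members moved by more than 2 counting errors in the vector line.

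The respiratory chain genes were among the more abundant transcripts of these cells. Together the 78 members summed to 28894, 29269, 27731 and 30193 FPKM, or 4.11%, 4.11%, 4.01% and 4.22% of all FPKM. FPKM is a share of the library, so a share that moves does not tell how much RNA a cell holds, and in bulk cells fewer cells of a kind and less RNA per cell cannot be told apart. FPKM is per length, and levels are set beside each other here as a description. The median transcript length of the members was 651 bases, and the accuracy of FPKM at such lengths was not tested. In the vector line without Dox the median level was 183 FPKM for complex I, 78.8 FPKM for complex II, 199 FPKM for complex III, 727 FPKM for complex IV and 296 FPKM for complex V. The most abundant member was ATP5E, with 2760.4 FPKM there, and the least abundant true subunit was NDUFA5, with 20.4 FPKM. Across members, shorter transcripts had higher FPKM, with a Spearman rho of -0.43 over 78 genes. This is a description across genes of the same libraries.

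Of the matching symbols, 8 lay below the level of 1 FPKM. They included the isoform genes of muscle, testis or other tissues: COX6A2 and COX8C, both listed at 0 in the 4 libraries, COX6B2 at 0.0344 to 0.0813 FPKM, COX7A1 at 0 to 0.0404 FPKM and COX7B2 at 0 to 0.0636 FPKM. ATP5EP2 and ATP5L2 were listed at 0. The nearest to the level from below was UQCRHL, an intronless relative of UQCRH, with 0.131, 0.173, 0 and 0.634 FPKM, and the nearest from above was UQCRBP1, with 1.54, 1.45, 1.17 and 1.43 FPKM. The widely expressed counterparts were all abundant, with COX6A1, COX6B1, COX7A2 and COX8A between 413 and 1023 FPKM in the 4 libraries.

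With Dox in the MYC line, 19 of the 78 members rose by at least 25%, ATP5D and ATP5G1 of the ATP synthase most, and NDUFB1 of complex I was the 1 member that fell by at least 20%, which is the same distance on the log2 scale. The number that rose was 13 after rescaling the libraries to the same sum and 22 under both other scalings. The 19 are 24.4% of the members, and 16.9% of all tested genes rose as far. The single fall is 1.28% of the members, and 21.4% of all tested genes fell as far. Among the 3699 tested genes that averaged 20 FPKM or more, a range that holds most of the members, 20.5% rose and 19.1% fell. The gap to the background was thus wider in the falls than in the rises. Changes are differences of log2(FPKM + 0.1), which understate the change of low genes.

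The sizes were small. The median log2 change of the members with Dox was 0.12 in the MYC line, beside -0.03 for all tested genes and 0.02 for those with at least 20 FPKM. It was 0.01 in the vector line, a sign that turned to -0.004 and -0.006 under 2 other scalings, beside 0.01 for all tested genes. In the MYC line 54 of the 78 members were above 0, or 69.2%, against 46.8% of all tested genes, and other scalings of the libraries gave 49 to 56. At 1.5-fold, 2 members were higher, which is 2.56% of them beside 5.9% of all tested genes, and 0 members were lower, beside 8.85% of all tested genes. The members also varied less than genes at large, with a robust SD across genes of 0.25 against 0.36.

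In the vector line, 1 member rose by at least 25% with Dox (UQCRFS1, the Rieske protein of complex III), beside 2.36% of all tested genes, and 0 fell, beside 1.72%. The untreated lines differed little as well. Without Dox, the MYC line was higher than the vector line by at least 25% in 1 member, the readthrough ATP5J2-PTCD1, beside 2.49% of all tested genes, and lower by at least 20% in 1, the pseudogene UQCRBP1, beside 1.11%. Its median difference over the members was -0.07, beside 0.02 for all tested genes. Before Dox 61 of the 78 were lower in the MYC line, beside 4496 of the 11147 tested genes. This lower starting level bears on the next comparison and on the changes with Dox in the MYC line, which are measured from it.

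When both lines had received Dox, the MYC line was higher than the vector line by at least 25% in 13 members and lower by at least 20% in 1. The 13 are 16.7% of the members, close to the 18.2% of all tested genes, and the 1 is 1.28%, beside 20.3% of all tested genes. The median difference was 0.04. This comparison shares its Dox-treated MYC-inducible library with the one above, so the values are set side by side and are not a second test. The library of the MYC line with Dox had the highest of the 4 values in 43 members (55.1%, beside 40.2% of all tested genes) and the lowest in 22 (28.2%, beside 42.9%).

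**Figure D1:**
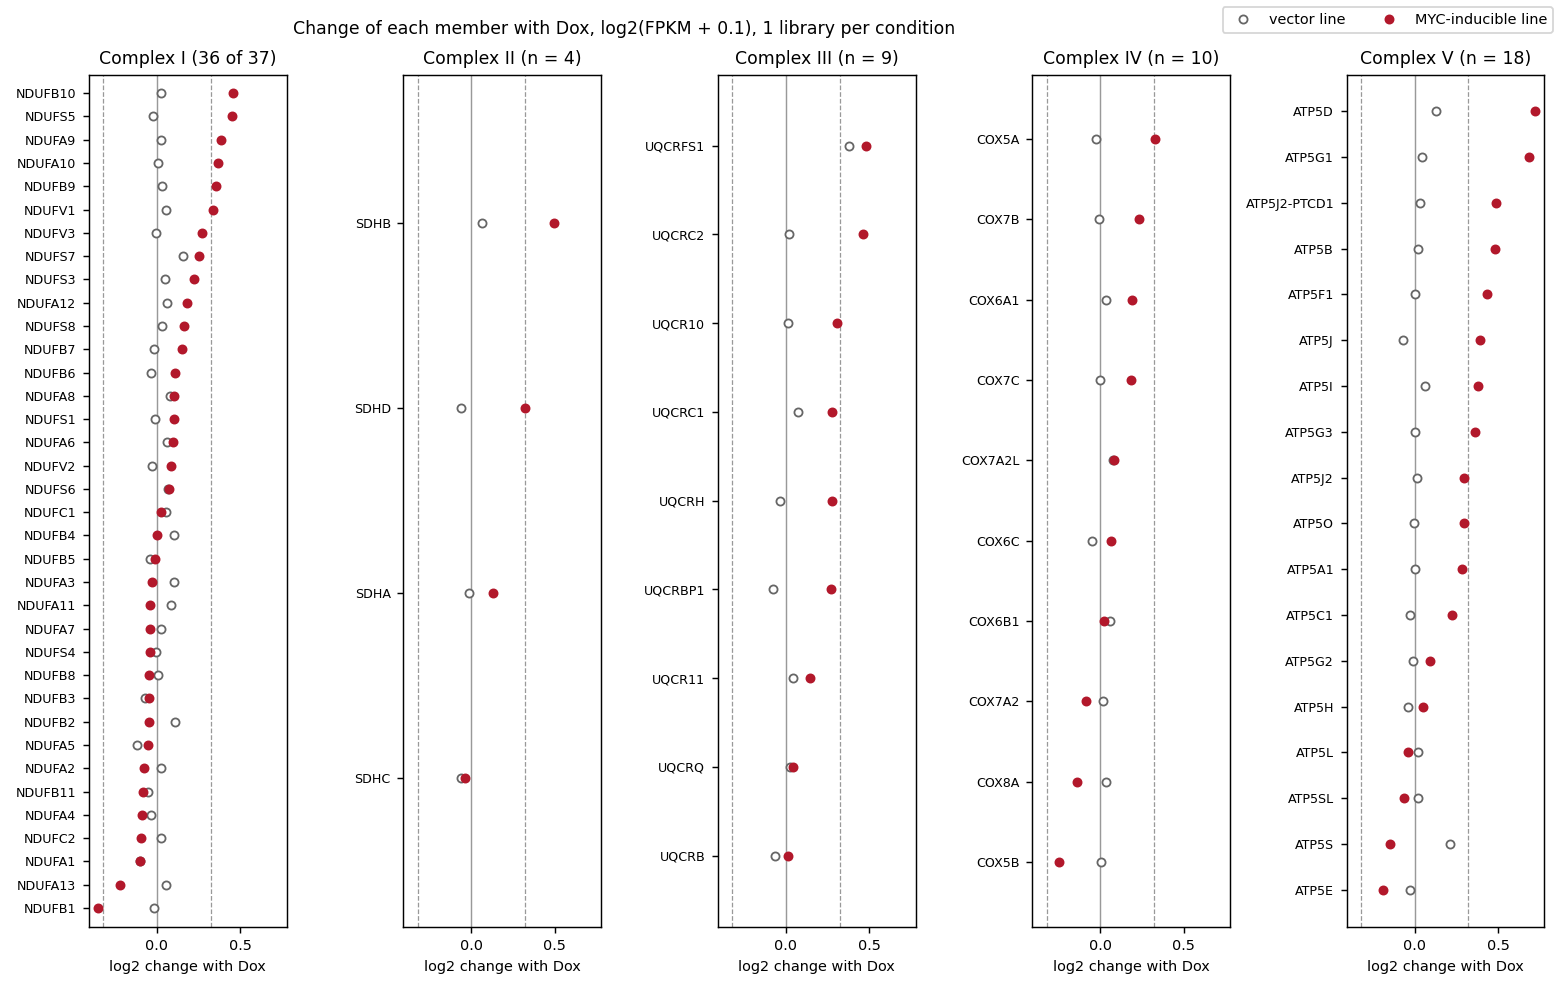
Each row is a member and each column of plots a complex; the horizontal axis is the log2 change with Dox, open circles for the vector line and filled red circles for the MYC line, 1 library per condition, and dashed lines mark a rise of 25% and a fall of 20%. The plot of complex I shows 36 of its 37 members. In the MYC line 8 of 18 members of complex V lie beyond the right dashed line, against 6 of 37 in complex I, and of the open circles those of UQCRFS1, at 0.38, and ATP5S, at 0.21, lie farthest from 0.

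The promoters were examined for the E-box and for the motif of NRF1, a regulator of respiratory chain genes, because 19 members rose in the MYC line and MYC binds the first of these. Promoters were taken from RefSeq on GRCh38.p14, from 250 bases before to 50 after each start, and 62 of the 78 members matched one. CACGTG, which reads the same on both strands, lay in a promoter of 7 of the 62 members, or 11.3%. It did so in 13.3% of the 8971 tested genes with a promoter and in 8.77% of all 27305 genes with one. Among the 13 matched members that rose by at least 25% in the MYC line 3 held it (ATP5F1, ATP5I and ATP5G1, in the last of which it starts at base 5 after the start), and among the 49 others 4 held it. The 6 that lie wholly before the start are shown with 27 bases on each side and the E-box in capitals, the 2 members that rose first.
ATP5F1, chr1:111449214-111449273, plus strand: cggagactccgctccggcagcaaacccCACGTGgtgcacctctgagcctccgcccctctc
ATP5I, chr4:674406-674465, minus strand: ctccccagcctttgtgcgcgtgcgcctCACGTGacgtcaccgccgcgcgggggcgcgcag
NDUFS7, chr19:1383693-1383752, plus strand: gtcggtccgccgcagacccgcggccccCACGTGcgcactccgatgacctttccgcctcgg
UQCR11, chr19:1605617-1605676, minus strand: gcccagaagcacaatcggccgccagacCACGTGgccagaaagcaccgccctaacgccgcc
NDUFA7, chr19:8321463-8321522, minus strand: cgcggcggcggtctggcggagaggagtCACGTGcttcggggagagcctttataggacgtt
NDUFA11, chr19:5903890-5903949, minus strand: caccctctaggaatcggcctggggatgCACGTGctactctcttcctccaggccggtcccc

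The E-box did not set the members apart, since its share was near that of tested genes. In ATP5F1 it begins 223 bases before the start, in ATP5I 162 bases, in NDUFS7 and UQCR11 187 bases, in NDUFA7 120 bases and in NDUFA11 132 bases. The motif GCGCATGC, searched on both strands as GCGCATGC and GCATGCGC, which overlap in the run that holds both, lay in a promoter of 14 of the 62 members, or 22.6%, beside 6.90% of tested genes and 3.68% of all genes with a promoter. It was more frequent in members than in tested genes, and 4 of the 13 members that rose held it beside 10 of the 49 others. The windows below hold it in capitals for those 4, and for COX5B, which had one of the lowest changes of the set.
SDHB, chr1:17054198-17054259, minus strand: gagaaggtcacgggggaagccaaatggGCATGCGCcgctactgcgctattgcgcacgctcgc
SDHD, chr11:112086736-112086797, plus strand: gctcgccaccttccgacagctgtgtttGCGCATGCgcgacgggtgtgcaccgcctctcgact
ATP5J, chr21:25735140-25735201, minus strand: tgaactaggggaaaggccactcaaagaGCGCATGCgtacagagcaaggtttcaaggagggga
ATP5I, chr4:674320-674381, minus strand: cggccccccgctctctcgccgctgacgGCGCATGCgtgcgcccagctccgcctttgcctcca
COX5B, chr2:97645899-97645960, plus strand: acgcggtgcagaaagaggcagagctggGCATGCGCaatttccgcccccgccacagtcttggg
A match is a run of letters and not evidence that a factor was bound, and no binding was measured here.

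ATP synthase, complex V, showed the largest median change of the 5 complexes. Its 18 members had a median log2 change of 0.30 with Dox in the MYC line and of 0.01 in the vector line, 8 rose by at least 25% (44.4%, beside 16.9% of all tested genes), and 0 fell by at least 20% (beside 21.4%). Relative to the Dox-treated vector line the median was 0.31. The medians of the vector line lay close to 0 in every complex, and for complexes III, IV and V their sign changed with the scaling. In 14 of the 18 the MYC line with Dox had the highest of the 4 values (77.8%, beside 40.2% of all tested genes).

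In the F1 head, ATP5D (the delta subunit of the central stalk, on chromosome 19 of GRCh37 from 1241745 to 1244824) had 278, 305, 257 and 424 FPKM. The last library stood above the other 3, and the log2 change was 0.72 in the MYC line and 0.13 in the vector line. Against the Dox-treated vector line the log2 difference was 0.48, smaller than against its own untreated line. ATP5B, the catalytic beta subunit, had 498, 505, 513 and 716 FPKM. The other 3 libraries lay close together below the last, and its log2 changes were 0.48 and 0.02. ATP5A1, the alpha subunit, had 256, 257, 261 and 318 FPKM, with log2 changes of 0.29 and 0.00. ATP5C1, the gamma subunit that forms the rotating shaft, had 222, 217, 230.1 and 269 FPKM, with log2 changes of 0.22 and -0.03. Both had their highest value in the MYC line with Dox, and neither reached 25%. ATP5E, the epsilon subunit of the same stalk, was lowest in that library, with 2760.4, 2713, 2594 and 2273 FPKM and log2 changes of -0.19 and -0.03. ATP5E shares sequence with 2 named pseudogenes and overlaps an exon of TUBB1, between which reads could have been divided.

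The c ring is coded by 3 paralogs whose mature proteins are the same and whose import sequences differ, and their changes were unequal. ATP5G1 (chromosome 17 of GRCh37, from 46970127 to 46973233) had 436, 449, 416 and 669 FPKM. It stood out in the last library only, with log2 changes of 0.69 in the MYC line and 0.04 in the vector line. ATP5G3 had 314, 315, 304 and 391 FPKM, with log2 changes of 0.36 and 0.00. ATP5G2 had 467, 463, 449 and 479 FPKM, with log2 changes of 0.09 and -0.01. ATP5G2 was thus the most abundant of the 3 in the untreated lines, and ATP5G1 the most abundant in the MYC line with Dox. ATP5G1 has 8 named pseudogene copies.

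The peripheral stalk holds the F1 head still while the ring turns. Its member ATP5F1 (subunit b) had 240.0, 241, 240.2 and 324 FPKM, 3 nearly equal libraries and a higher last one, with log2 changes of 0.43 and 0.00. ATP5J (coupling factor 6) had 199.9, 190.4, 192 and 251 FPKM, with log2 changes of 0.39 and -0.07. ATP5O, which joins the stalk to the head, had 377, 375, 371 and 456 FPKM, with log2 changes of 0.30 and -0.01. ATP5H (subunit d) had 427, 416, 413 and 428 FPKM, and its log2 changes were 0.05 and -0.04. All 4 stalk subunits were highest in the MYC line with Dox, ATP5H by under 1 FPKM, and the first 2 rose by at least 25%. Among the small subunits of the membrane part, ATP5I (subunit e) rose, with 764, 799, 709 and 924 FPKM and log2 changes of 0.38 and 0.06. ATP5L (subunit g), which acts beside it in joining synthase dimers, had 155, 157, 142 and 138 FPKM, and its log2 changes were -0.04 and 0.02. ATP5J2 (subunit f) had 597, 602, 612 and 752 FPKM, with log2 changes of 0.30 and 0.01. ATP5F1, ATP5J and ATP5I each overlap an exon of another gene, and it is not stated whether the values use the strand of the reads.

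The remaining ATP5 symbols are not subunits of the enzyme. ATP5J2-PTCD1 had 2.22, 2.27, 2.81 and 3.98 FPKM, with a log2 change of 0.48 in the MYC line, and it shares exons with ATP5J2 and PTCD1. ATP5S had 4.64, 5.39, 5.06 and 4.57 FPKM, with log2 changes of -0.14 and 0.21. ATP5SL had 31.4, 31.8, 29.5 and 28.2 FPKM, with log2 changes of -0.06 and 0.02.

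**Figure D2:**
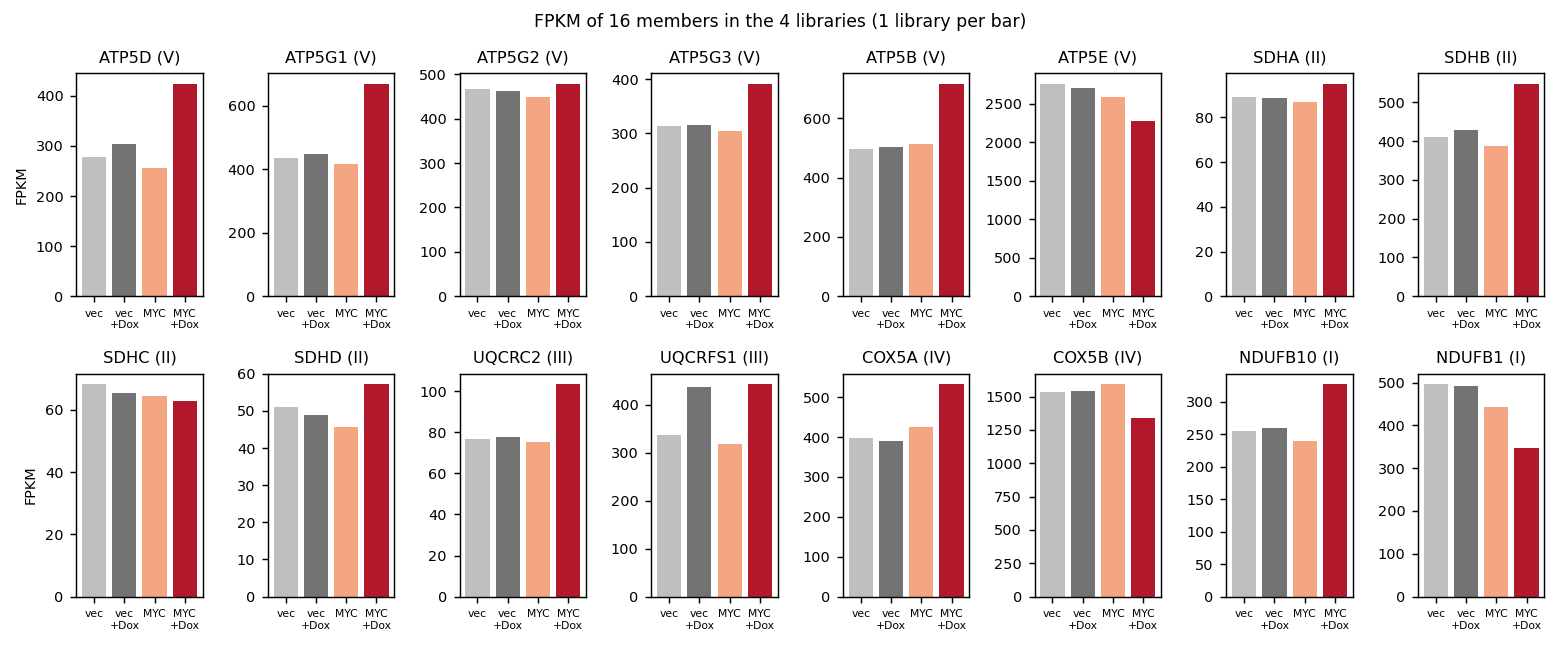
FPKM (vertical axis, from 0) of 16 members in the vector line (vec) and the MYC line (MYC) without and with Dox, 1 library per bar, with the complex in parentheses. The dark red bar, the MYC line with Dox, is the highest of the 4 for ATP5D at 424 FPKM and for ATP5G1 at 669 FPKM and the lowest for ATP5E at 2273 FPKM and for NDUFB1 at 346 FPKM, and UQCRFS1 is raised in both lines with Dox.

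Succinate dehydrogenase, complex II, is the sole complex coded wholly in the nucleus and is also an enzyme of the TCA cycle. Its 4 members had a median log2 change of 0.23 in the MYC line and of -0.04 in the vector line. In the MYC line 2 rose by at least 25% (50%, beside 16.9% of all tested genes). SDHB, the iron-sulfur subunit (chromosome 1 of GRCh37, from 17345159 to 17380527), had 411, 429, 388 and 548 FPKM. The last library was the highest, with log2 changes of 0.50 and 0.06. SDHD, a membrane anchor, had 51.1, 49.0, 45.7 and 57.2 FPKM, with log2 changes of 0.32 and -0.06. Its rise passed 25% narrowly and not after rescaling to the same sum, and the MYC line without Dox was its lowest library, and against the Dox-treated vector line the log2 difference was 0.22. SDHA, the flavoprotein that oxidizes succinate, had 89.2, 88.5, 86.7 and 94.99 FPKM, with log2 changes of 0.13 and -0.01. SDHC, the other anchor, had 68.3, 65.5, 64.5 and 62.8 FPKM, with log2 changes of -0.04 and -0.06. The 4 subunits are present in equal number in the enzyme, while their transcripts spanned 57.2 to 548 FPKM in the MYC line with Dox.

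In complex III all 9 members were above 0 with Dox in the MYC line (7 after rescaling to the same sum). Of all tested genes 46.8% were above 0. The 9 include the pseudogene UQCRBP1, at 0.27 with an approximate counting error of 0.485, and UQCRQ and UQCRB also lay within 2 counting errors of 0. The log2 changes of the 9 had a median of 0.27, and 2 rose by at least 25% (22.2%, beside 16.9% of all tested genes). The median in the vector line was 0.02. Against the Dox-treated vector line the median was 0.02, and without Dox the 9 members were all lower in the MYC line than in the vector line, with a median log2 difference of -0.08. UQCRFS1, the Rieske iron-sulfur protein, had 336, 437, 318 and 442 FPKM, high in both libraries with Dox. It rose in both lines with Dox, by 0.48 in the MYC line and by 0.38 in the vector line on the log2 scale, and the 2 Dox-treated libraries were 0.02 apart. UQCRC2, a core protein (chromosome 16 of GRCh37, from 21964609 to 21994981), had 76.9, 77.9, 75.1 and 104 FPKM. Its rise was in the MYC line with Dox, with log2 changes of 0.46 and 0.02 and a log2 difference of 0.41 against the Dox-treated vector line. UQCRC1, the other core protein, had 242, 255, 226 and 274 FPKM, with log2 changes of 0.28 and 0.07.

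The small subunits of complex III changed by less than 25%, except that UQCR10 passed it when libraries were divided by their median ratio or upper quartile. UQCR10 had 221, 223, 194 and 241 FPKM, with a log2 change of 0.31 in the MYC line (0.33 and 0.34 under those scalings). UQCRH, the hinge protein that binds cytochrome c1, had 1566, 1528, 1525 and 1845 FPKM, with a log2 change of 0.27, and it was by far the most abundant transcript of the complex. UQCR11 had 165, 171, 157 and 173 FPKM, with a log2 change of 0.15. These 3 were highest in the MYC line with Dox. UQCRQ and UQCRB, which lie near the ubiquinone site, had log2 changes of 0.04 and 0.01 in the MYC line, both below 0 after rescaling to the same sum, and of 0.02 and -0.06 in the vector line. UQCRB had 59.8, 57.2, 57.2 and 57.7 FPKM, and its pseudogene UQCRBP1 rested on approximately 16.6 to 20.3 fragments per library.

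Complex IV, cytochrome c oxidase, had a median log2 change of 0.07 over its 10 members in the MYC line and of 0.01 in the vector line, and against the Dox-treated vector line the median was -0.03. COX5A was the 1 member that rose by at least 25% (10% of the members, beside 16.9% of all tested genes). Its rise passed 25% narrowly and not after rescaling to the same sum. COX5A had 397, 391, 425 and 533 FPKM, with log2 changes of 0.33 and -0.02. COX5B, its neighbour on the matrix side of the enzyme, had 1538, 1541, 1594 and 1343 FPKM, with log2 changes of -0.25 and 0.00. The changes of these subunits had opposite signs, COX5A highest and COX5B lowest in the MYC line with Dox. COX5B has 7 named pseudogene copies and COX5A has 2. COX7B had 769, 766, 714 and 840.2 FPKM, with a log2 change of 0.23. COX6A1 had 925, 947, 896 and 1023 FPKM, with a log2 change of 0.19. COX7C, a small membrane subunit, had a log2 change of 0.18. These 3 had their highest value in the MYC line with Dox. COX8A had 684, 701, 638 and 579 FPKM, with log2 changes of -0.14 and 0.04. COX6B1 had a log2 change of 0.02, which turned to -0.03 after rescaling to the same sum, COX7A2 of -0.09 and the supercomplex factor COX7A2L of 0.08, the last with 0.08 in the vector line also.

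Complex I, the largest complex, had a median log2 change of 0.07 over its 37 members in the MYC line and of 0.02 in the vector line, and against the Dox-treated vector line its sign turned, with a median of -0.02. Of the 37, 21 were above 0 in the MYC line (56.8%, beside 46.8% of all tested genes). By at least 25% 6 rose (16.2%, near the 16.9% of all tested genes), or 3 after rescaling to the same sum. By at least 20% 1 fell (2.70%, beside 21.4%). The MYC line with Dox had the highest of the 4 values in 16 (43.2%, near the 40.2% of all tested genes). It had the lowest in 14 (37.8%, near the 42.9% of all tested genes). Within the complex the members went both ways.

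The core subunits coded in the nucleus include the carriers of the redox centres, and 1 of them rose by at least 25%. The 30 accessory subunits, taken as such by their symbols, had a median of -0.02, which turned to 0.01 under both other scalings without a fixed sum. Above 0 were 14 of them, beside 46.8% of all tested genes. NDUFV1, the subunit that binds NADH and FMN, had 129.9, 135, 129.6 and 164 FPKM, with log2 changes of 0.34 and 0.05. It was the core subunit that rose, and after rescaling to the same sum 0 core subunits rose by 25%. NDUFS7, which holds the last iron-sulfur cluster before ubiquinone, had 183, 203, 163 and 194 FPKM, with log2 changes of 0.25 and 0.15, and the vector line with Dox was its highest library. NDUFS3 had a log2 change of 0.22, NDUFS8 of 0.16, NDUFS1 of 0.10 and NDUFV2 of 0.09 in the MYC line, beside 0.05, 0.03, -0.01 and -0.03 in the vector line.

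The accessory subunits held the largest changes of complex I in both directions. NDUFB10 (chromosome 16 of GRCh37, from 2009539 to 2011976) had 255, 259, 239 and 327 FPKM, with log2 changes of 0.45 and 0.03. NDUFS5 had 665, 654, 601 and 821 FPKM, with log2 changes of 0.45 and -0.02. For both, which face the intermembrane space, the last library was the highest and the MYC line without Dox the lowest. NDUFA9, at the junction of the arms, had 54.6, 55.6, 49.99 and 65.4 FPKM, with log2 changes of 0.39 and 0.03. NDUFA10 and NDUFB9 also rose, with log2 changes of 0.37 and 0.35 in the MYC line and of 0.01 and 0.03 in the vector line. NDUFB1, a small subunit of the distal arm (chromosome 14 of GRCh37, from 92582466 to 92588261), had 496, 491, 443 and 346 FPKM. It fell in the MYC line, with log2 changes of -0.35 and -0.02, and its untreated level was already lower in the MYC line. NDUFA13, also known as GRIM-19, had 1115, 1158, 1101 and 945 FPKM, with log2 changes of -0.22 and 0.05, lowest in the last library. NDUFB2 had 441, 475, 437 and 423 FPKM, with log2 changes of -0.05 and 0.11, highest in the vector line with Dox. The exons of NDUFA13 overlap those of YJEFN3, and those of NDUFB10, NDUFS5 and NDUFB1 overlap no other annotated gene.

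**Figure D3:**
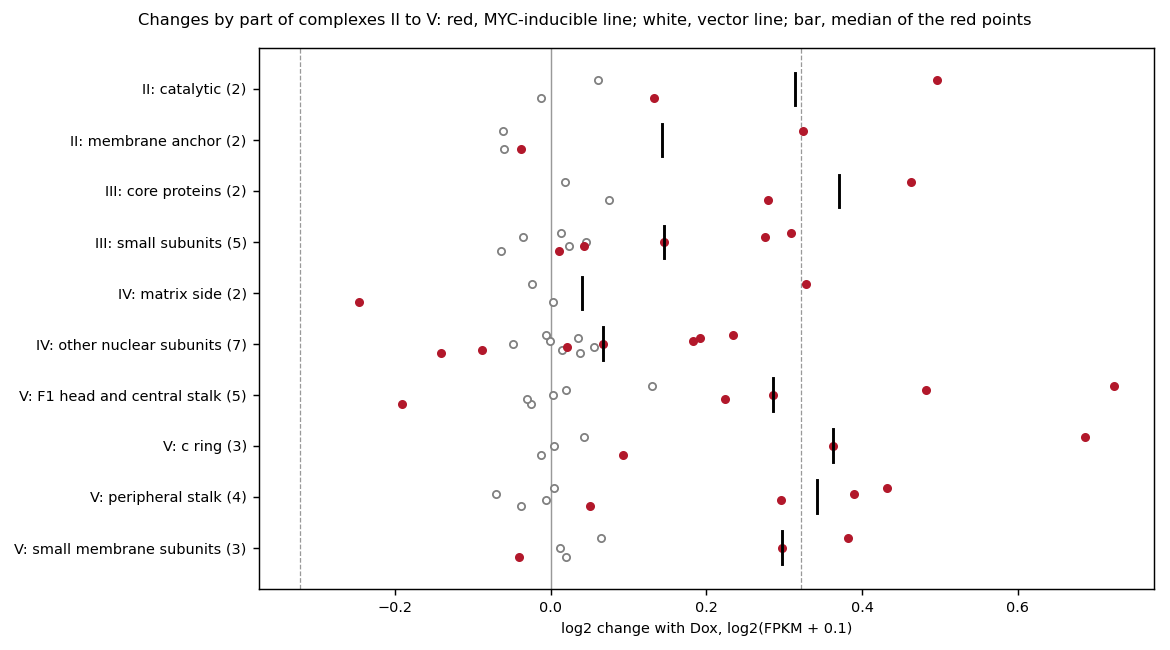
Log2 change with Dox (horizontal axis) of the members of complexes II, III, IV and V grouped by part of each complex, for parts of at least 2 members, with the number of members in parentheses; red points are the MYC line, white points the vector line, black bars the median of the red points, and dashed lines mark a rise of 25% and a fall of 20%. The medians are 0.29 to 0.36 in the parts of complex V.

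Genes that work with these complexes were examined as lists by role. Of 9 subunits and partners whose symbols lie outside the patterns, 7 had a mean of at least 1 FPKM. The median of their log2 changes was 0.22 in the MYC line and 0.03 in the vector line. In the MYC line 3 rose by at least 25% and 0 fell as far, beside 16.9% and 21.4% of all tested genes. The number that rose was 2 after rescaling to the same sum. CYC1, the cytochrome c1 subunit of complex III, had 133, 138, 132 and 204 FPKM, with log2 changes of 0.62 and 0.06. CYCS, cytochrome c itself, had 78.6, 72.5, 77.0 and 109.8 FPKM, with log2 changes of 0.51 and -0.12. The lowest were COX4I1, a subunit of complex IV, at 0.13 and ATPIF1, the inhibitor of ATP synthase, at -0.10.

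Assembly factors, which build the complexes without staying in them, were all expressed, 47 of 47. The median of their log2 changes was 0.20 in the MYC line and 0.04 in the vector line, with 17 that rose by at least 25% (36.2%, beside 16.9% of all tested genes) and 1 that fell by at least 20% (2.13%, beside 21.4%). ECSIT, a complex I assembly factor, had 28.0, 30.1, 26.2 and 46.0 FPKM, with log2 changes of 0.81 and 0.10. LRPPRC, which stabilizes mitochondrial mRNAs, had 25.9, 25.3, 27.7 and 47.0 FPKM, with log2 changes of 0.76 and -0.03. C6orf57 (now SDHAF4), an assembly factor of SDHA, fell by 0.45 on the log2 scale, from 7.82 to 5.68 FPKM, while COX17, a copper chaperone of complex IV, had a log2 change of -0.29.

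Genes that copy or express mitochondrial DNA, with regulators of mitochondrial genes, had the highest median of these lists. Of 16 genes 14 were expressed, the median of their log2 changes was 0.45 in the MYC line and 0.03 in the vector line, 8 rose by at least 25% (57.1%, beside 16.9% of all tested genes) and 0 fell by at least 20% (beside 21.4%). C10orf2, the Twinkle helicase, had 14.04, 13.6, 13.7 and 31.1 FPKM, with log2 changes of 1.17 and -0.05. POLG2, the accessory subunit of the mitochondrial DNA polymerase, had 4.56, 4.69, 4.60 and 8.995 FPKM, with log2 changes of 0.95 and 0.04. POLG, its catalytic subunit, and TFB1M, an rRNA methyltransferase, had log2 changes of 0.07 and -0.07. The coactivator genes PPARGC1A and PPARGC1B were below 1 FPKM on average.

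Of the 18 genes of pyruvate dehydrogenase and the TCA cycle, all expressed, 8 rose by at least 25% (44.4%, beside 16.9% of all tested genes) and 1 fell by at least 20% (5.56%, beside 21.4%), and the median of their log2 changes was 0.27 in the MYC line and -0.01 in the vector line. DLAT and PDHA1, both of pyruvate dehydrogenase, had log2 changes of 0.60 and 0.54 in the MYC line. SUCLG2, a subunit of the GDP-forming succinyl-CoA ligase, had a log2 change of -0.28, and PC, pyruvate carboxylase, fell by 0.64 on the log2 scale, from 21.1 to 13.5 FPKM. Beside these lists, the 78 members had the lowest median change, at 0.12. The difference between the lists was not tested.

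**Figure D4:**
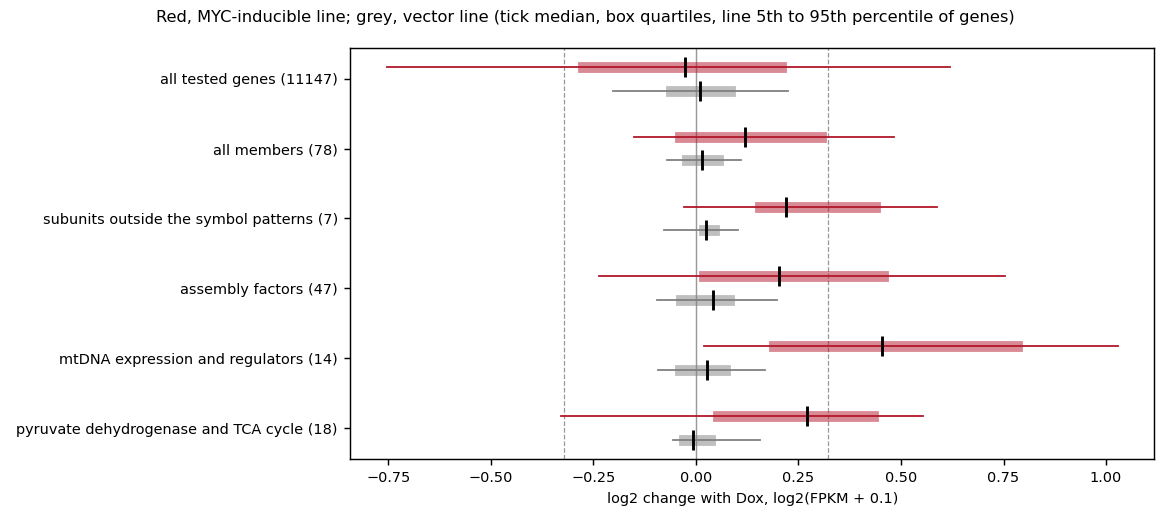
Distribution over genes of the log2 change with Dox for all tested genes, the 78 members and 4 lists of related genes, with the number of genes in parentheses; red is the MYC line and grey the vector line, the tick is the median, the thick bar the quartiles and the thin line the range from percentile 5 to percentile 95 of genes. In the MYC line the medians run from -0.03 for all tested genes and 0.12 for the members to 0.45 for the genes of mtDNA expression, and in the vector line they lie between -0.01 and 0.04.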

How the data were processed

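RNA-Seq of SK-MEL-28 cells was analysed from 4 libraries, 1 per condition, grouped by the deposited labels. The authors deposited 1 table of FPKM values by gene symbol. The submitters' processing notes name TopHat2 2.0.14, Cufflinks, hg19 and GRCh37, and the annotation is not given in the sources used here. Of its 27032 rows, 1 had no gene name and was dropped, and values of 609 symbols that occur in several rows were added up, none of them a member. FPKM values are not counts, so no count model was fitted, and with 1 library per condition no test was made. Changes were calculated between pairs of libraries as differences of log2(FPKM + 0.1), in the 11147 genes whose mean reached 1 FPKM. A change was called at a rise of 25% or a fall of 20% (equal in size on the log2 scale), or at 1.5-fold.

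The members, lists and thresholds were chosen with earlier results of these data known. Named by rule were all members of complexes II and III, in complexes I, IV and V the 3 highest and 3 lowest differences between the lines, members past 1.5-fold, the complex I core subunits, ATP5A1, ATP5B, ATP5C1 and sets of paralogs, and, of each other list, the 2 highest and 2 lowest. Other names, such as ATP5F1, ATP5J, ATP5I, NDUFA10, NDUFB9 and the promoter examples, were chosen after their values were seen. Of the complex I core subunits, 1 is not reported here. Approximate depth rested on 85 low genes whose values were multiples of 1 fragment to within 1.2%, and it set the approximate counting errors, with transcript lengths from GENCODE on GRCh37. The calculations were tested on simulated data. Tried as alternatives were 2 other pseudocounts (1 and 0.01 FPKM), leaving the filter out or setting it to 5 FPKM, 3 other scalings, the Dox-treated vector line as reference, thresholds of 1.5-fold and 2-fold, and means instead of medians. Of the members, 43 have exons that overlap another gene and 47 have a named pseudogene copy, among which the counting could have divided reads. The work was done in Python 3.11.15 with pandas 2.3.3, numpy 2.4.6 and, for plots, matplotlib 3.10.9.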

Additional observations from a re-analysis of the deposited data

Results flagged for a closer look

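For 4 members the change with Dox went opposite ways in the lines, with a rise of at least 25% in the MYC line and a change below 0 in the vector line. In the vector line 30 of the 78 members were below 0, beside 5086 of the 11147 tested genes. The share of all tested genes with such opposite changes was not calculated, so the count does not set the members apart. The log2 change in the MYC line minus that in the vector line was 0.47 for NDUFS5 of complex I, 0.46 for ATP5J of complex V, 0.39 for SDHD of complex II and 0.35 for COX5A of complex IV. Each direction rests on 1 library against 1, the changes in the vector line were from -0.07 to -0.02, and no test of the difference was made, so it was not tested. For NDUFS5, SDHD and COX5A the change in the vector line was within 2 approximate counting errors of 0. After rescaling to the same sum SDHD and COX5A no longer rose by 25%, and the members with opposite changes numbered 4, of which 2 (ATP5J and NDUFS5) were among those named here. They numbered 8 after division by the median ratio and 12 after division by the upper quartile, the 4 named here among them both times.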

How the results depend on the processing

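No paired analysis was possible because there is a single library for every condition, and for the same reason no library could be left out. Of 119 recalculated summary values, 110 moved by less than 0.107 (log2) or, for counts, by at most 1.5 times, and 9 moved further. The bound of 0.107 is the robust SD over all genes of the change in the vector line. It is close to the median change of all members in the MYC line, 0.12. That median was 0.04 against the vector line with Dox, which counts here as not moved further. Reversals were looked for only in changes of at least 25%, which no summary median reached. Without the filter on low values, 2 members were lower by at least 20% in the MYC line, and 2 were higher by at least 25% and 1 lower in the vector line. That filter itself changes which genes are counted. At 1.5-fold, 2 members were higher and 0 lower in the MYC line, and 0 were higher in the vector line. At 2-fold, 0 were higher and 0 lower in the MYC line. Against the vector line with Dox the median log2 difference of complex III was 0.021, and between the lines without Dox it was -0.08. The other values that changed sign without moving further were the median of all members in the vector line, -0.004 after rescaling to the same sum and -0.006 with the upper quartile, and, against the vector line with Dox, the medians of complex I at -0.02 and complex IV at -0.03. Of 403 recalculated values for named members 22 moved further, all of them against the vector line with Dox, and 8 changed sign. The other scalings shifted the median of all tested genes by -0.05, 0.03 and 0.03. Depth limited UQCRBP1 most, with an approximate counting error of 0.485.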

Other observations

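Members with transcripts shorter than the median of the set and those at or above it were compared as a description, 39 genes each. In the MYC line the median log2 change was 0.07 for the shorter transcripts, of which 7 rose by at least 25% and 1 fell. For the longer ones it was 0.15, and 12 rose and 0 fell. Over all tested genes of any length, 16.9% rose and 21.4% fell as far, and these were not split by length. Across the 78 members the Spearman rho with the change in the MYC line was 0.12 for transcript length, 0.04 for the number of named pseudogene copies and -0.00 for the mean level. The members share libraries, so these values carry no test.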
